A study of Mus musculus with 48 samples.

Results

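The measurements described here are the 6 CAST/EiJ libraries of a study of 48 RNA-seq libraries from 24 male mice: the immobilized and the control tibia of 3 animals, numbered 2, 3 and 4. The study took tibial metaphysis, the flared bone end next to the growth plate with its trabecular bone and marrow, from 8 inbred strains at 19 weeks of age. CAST/EiJ is an inbred strain derived from wild Mus musculus castaneus. In the immobilized group, the left hindlimb had been casted over 3 weeks, whereas the control group is the uncast right tibia of the same 3 animals. The control limbs therefore come from animals that wore a cast on the other leg, no mouse without a cast was measured, and since every immobilized limb was a left limb, cast and side cannot be told apart. The libraries were found by strain and limb in the labels and paired by mouse number, and 16882 genes with enough reads were described across them. The comparison asks what immobilization changed in this strain.

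Bone is kept in balance by osteoblasts, which deposit a type I collagen matrix and mineralize it, and osteoclasts, which dissolve mineral with acid and cut the collagen with proteases such as cathepsin K. Osteocytes, former osteoblasts buried in the matrix, sense load and release regulators such as sclerostin, an inhibitor of Wnt signalling, and the osteoblast lineage also supplies RANKL (gene Tnfsf11), which drives osteoclast formation. Unloading of a limb is known for net loss of trabecular bone, and the marrow between the trabeculae holds developing blood cells, stromal cells and fat.

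The 3 immobilized libraries held 7922411, 7707432 and 7346285 counts for mice 2, 3 and 4, and the 3 control libraries 8114856, 10160669 and 11242405. Across the whole series, 46 libraries held from 5253408 to 14744056 counts, and 2 A/J control libraries were close to empty, with 50 and 2335 counts. Scaling factors by the trimmed mean of M-values (TMM) were 0.916 to 0.929 in the immobilized and 1.06 to 1.08 in the control libraries, and Col1a1 alone took 3.33%, 7.97% and 5.35% of all counts in the immobilized against 0.622%, 0.298% and 0.447% in the control libraries of mice 2, 3 and 4. Defining genes of osteoblasts (Col1a1, Bglap), osteocytes (Sost, Dmp1), osteoclasts (Acp5, Ctsk), neutrophils (Elane), erythroid cells (Hba-a1) and B cells (Rag1, Il7r) had reads in all 6 libraries, as did skeletal muscle genes, which the metaphysis itself should lack. The 25 muscle genes summed to 2447, 694 and 835 CPM (counts scaled to a common library size) in the immobilized limbs of mice 2, 3 and 4, against 929, 8659 and 371 CPM in the control limbs, so the control library of mouse 3 stood apart from the other 5. CPM values throughout are those of edgeR after TMM scaling.

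In CAST/EiJ tibiae, 2339 of 16882 genes (13.9%) passed an adjusted p (false discovery rate) of 0.05 in edgeR's paired quasi-likelihood test, 1415 (8.38%) higher and 924 (5.47%) lower in the immobilized limb. The rises were larger than the falls: 956 of the called rises and 177 of the called falls reached 2-fold. Every called fall was lower in all 3 mice, and 1408 of the 1415 called rises were higher in all 3. The calls were made on the same 3 mice, so this agreement is not separate evidence for them. In 5981 genes (35.4%) the immobilized and control values did not overlap, and this held for 1371 of the called rises and 855 of the called falls. The median log2 change of all genes was -0.01. The test above is called the main fit. Its shares of all genes called, 8.38% higher and 5.47% lower, are the background for its counts of list members below. Counts at an unadjusted p under 0.05 stand beside 5016 of all 16882 genes at that level. List counts from other fits stand beside the calls of the same fit. DESeq2 called 2995 of 16882 genes, edgeR on the CAST/EiJ libraries alone 3361 of 14052, and a fit with a muscle covariate 3417 of 16882. With both libraries of 1 mouse left out, 1016 of 16851 genes were called without mouse 2 (804 higher, 212 lower). Without mouse 3 it was 821 of 16853 (504 and 317), and without mouse 4 679 of 16863 (478 and 201). With no term for the mouse 1257 of 16882 were called (813 and 444). Counts of list members in these fits stand beside these totals. Genes given with an effect size that lost their call with a mouse left out are marked as such, with the adjusted p reached there. The limb effects rest on 3 animals, while the spread behind SEs and p-values was shared by all strains in the fit, and in pieces of whole tissue, fewer cells of a type and less RNA per cell cannot be told apart.

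**Figure D1:**
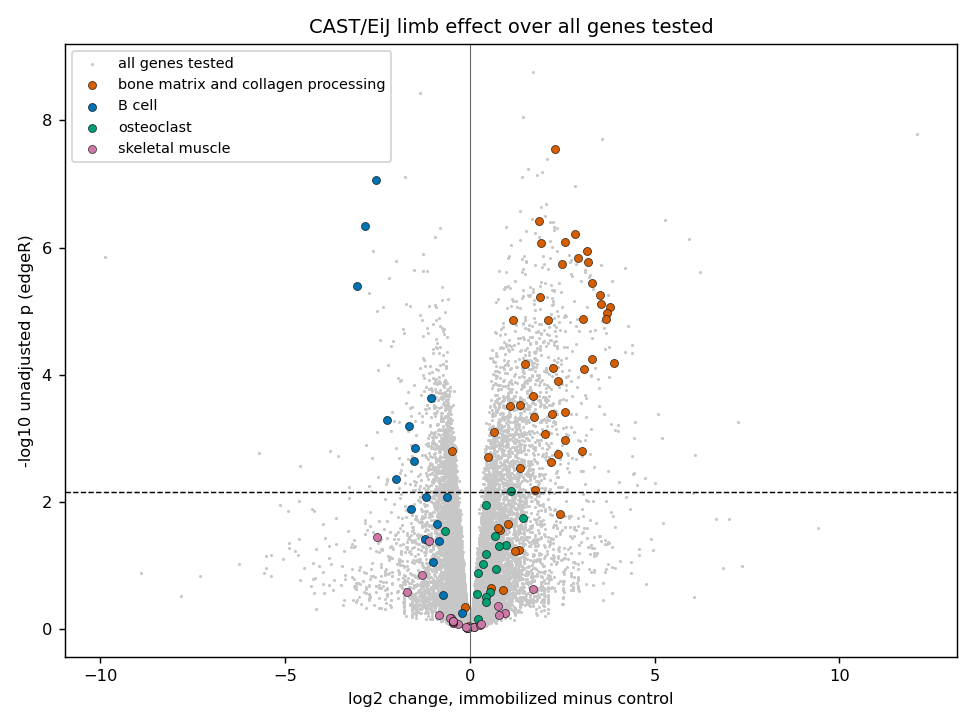
Log2 change in CAST/EiJ tibia, immobilized minus control (x axis), against -log10 of edgeR's unadjusted p (y axis) for each of 16882 genes, with genes of 5 lists in 4 colours. Above the dashed line genes pass an adjusted p of 0.05, and there bone matrix and collagen processing genes lie on the right, but for 1, and B cell genes on the left.

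The proteins of the bone matrix had the largest median rise of all gene lists tested here. Of 22 matrix genes 16 rose, beside 8.38% of all genes, and none fell. The list had a median log2 change of 2.93, against -0.01 for all genes. Their values did not overlap between the limbs in 20 of 22 genes, where 35.4% of all genes did not overlap, and all 22 were higher in each mouse. Summed over the list, the immobilized limbs held 104900, 225300 and 181800 CPM in mice 2, 3 and 4, against 21180, 13630 and 15810 CPM in the control limbs. Mouse 2 had the smallest median change, 2.0, beside 3.32 in mouse 3 and 3.01 in mouse 4.

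Type I collagen is the main protein of bone. Col1a1 (chromosome 11, 94936224 to 94953042, GRCm38) had 35810, 87000 and 58410 CPM in the immobilized limbs of mice 2, 3 and 4, against 5818, 2769 and 4221 CPM in the control limbs. The lowest immobilized limb was well above the highest control limb, and mouse 2 had both the lowest immobilized and the highest control value. The log2 rise of Col1a1 was 3.79 ± 0.62 (SE of the model, adjusted p = 0.00101), a 13.9-fold change. The spread behind this SE is pooled over the strains with 3 pairs in the fit, as the single usable A/J pair adds nothing to it. Its partner chain Col1a2 (chromosome 6, 4504814 to 4541544) had 37190, 86580 and 71770 CPM in immobilized limbs and 6827, 3031 and 4998 CPM in control limbs, a rise of 3.72 ± 0.62 (adjusted p = 0.00118). The 2 chains kept the same order of mice.

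Col11a1, a minor fibrillar collagen chain that sits inside larger fibrils, had 1285, 3765 and 3773 CPM in immobilized limbs, against 268, 113 and 195 CPM in control limbs, and rose by 3.89 ± 0.74 (adjusted p = 0.00315). Cthrc1, a secreted matrix protein that affects collagen deposition, had 48, 124 and 95 CPM in immobilized limbs and 8.07, 5.21 and 6.30 CPM in control limbs, a rise of 3.69 ± 0.61 (adjusted p = 0.00134). Neither gene overlapped between the limbs. Bglap, which encodes osteocalcin, the hormone-like matrix protein of mature osteoblasts, had 3283, 4188 and 6614 CPM in immobilized limbs, against 633, 328 and 457 CPM in control limbs. It rose by 3.31 ± 0.63 (adjusted p = 0.00295), without overlap. Bglap lies beside the near-identical copies Bglap2 and Bglap3, so how reads were divided among them is uncertain. Ibsp, bone sialoprotein, which binds mineral, had 1065, 1666 and 1428 CPM in immobilized limbs and 319, 299 and 185 CPM in control limbs. Its rise of 2.39 ± 0.65 (adjusted p = 0.0221) had no overlap, but the call was lost without mouse 2 (adjusted p = 0.0588), mouse 3 (0.098) or mouse 4 (0.137).

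**Figure D2:**
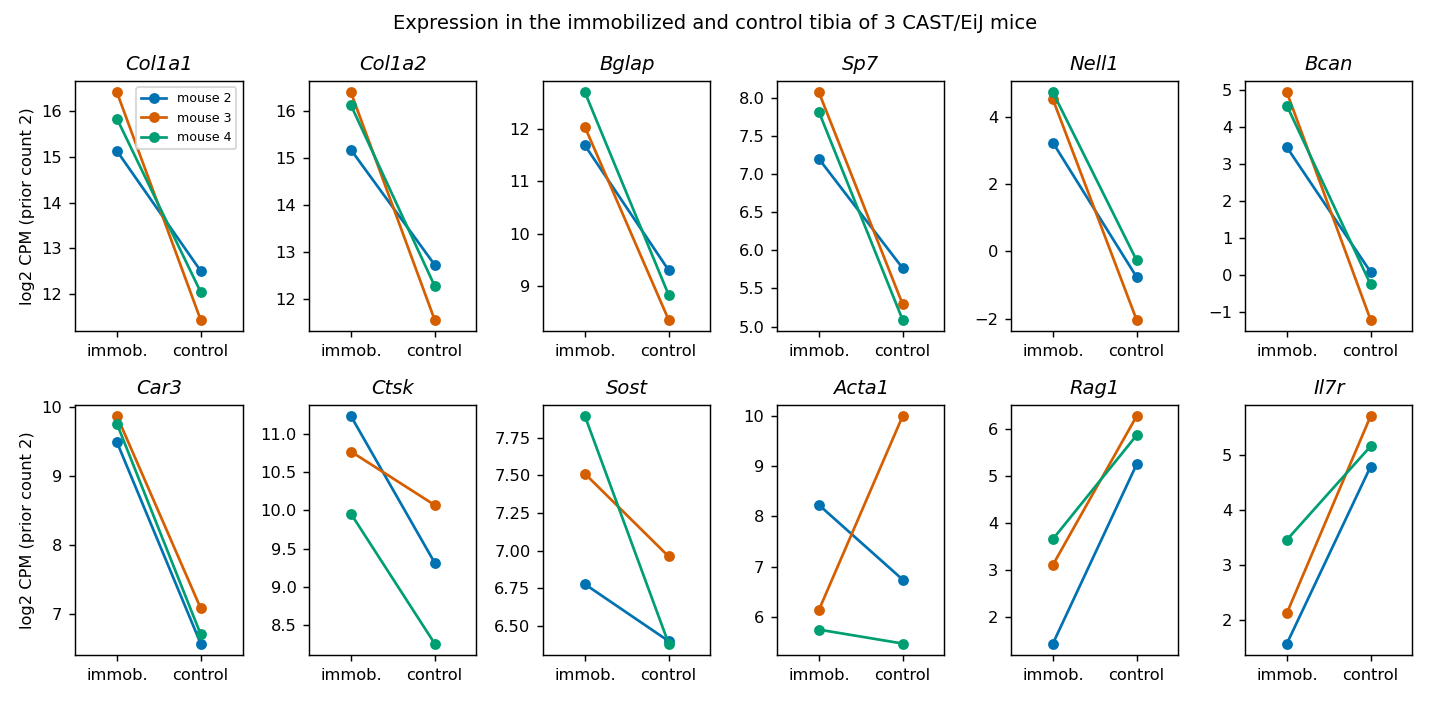
Log2 CPM (prior count of 2) of 12 genes in the immobilized (left) and control (right) tibia of CAST/EiJ mice 2, 3 and 4, with a line joining the limbs of a mouse. Matrix genes, Nell1, Bcan and Car3 are higher in every immobilized limb, Rag1 and Il7r lower, and Acta1 is lower in the immobilized limb of mouse 3 alone.

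Enzymes that fold, trim and crosslink collagen moved with their substrate. Of 29 such genes 24 rose and 1 fell, beside 8.38% and 5.47% of all genes, with a median log2 change of 1.89. The count of calls was 22 without mouse 2, 13 without mouse 3 and 13 without mouse 4, beside 1016, 821 and 679 of all genes. Creb3l1, the transcription factor that switches on type I collagen genes and secretion in osteoblasts, had 86.0, 206 and 120 CPM in immobilized limbs, against 17.6, 13.5 and 12 CPM in control limbs, and rose by 3.18 ± 0.44 (adjusted p = 0.000436). Lox, the lysyl oxidase that starts crosslinks, had 203, 651 and 498 CPM in immobilized limbs and 54.9, 39.3 and 50.2 CPM in control limbs, a rise of 3.09 ± 0.60 (adjusted p = 0.00355). The limbs of both genes were far apart, with mouse 3 highest among the immobilized.

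Fkbp10, a collagen chaperone of the endoplasmic reticulum, rose by 2.93 ± 0.41 (adjusted p = 0.000461), and Bmp1, the protease that trims procollagen outside the cell, by 2.58 ± 0.35 (adjusted p = 0.000362). P4ha1, a subunit of the prolyl hydroxylase that stabilizes the collagen helix, rose by 1.35 ± 0.39 (adjusted p = 0.0296), a call lost without mouse 3 (adjusted p = 0.178) or mouse 4 (0.162). The fall was Colgalt1, which adds galactose to collagen, at -0.48 ± 0.13 (adjusted p = 0.0204). This call was lost with any mouse left out (adjusted p = 0.0642 to 0.113), and the gene was chosen after its values were seen, as the single call in the other direction.

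Of 12 genes of mineral deposition 6 rose, beside 8.38% of all genes, and none fell. The median log2 change was 1.24, and 3 were called without mouse 4. Alpl, the alkaline phosphatase that frees phosphate for mineral, had 543, 896 and 551 CPM in immobilized limbs, against 155, 140 and 98.1 CPM in control limbs, a rise of 2.33 ± 0.40 (adjusted p = 0.00155). Phospho1, which releases phosphate inside matrix vesicles, rose by 2.27 ± 0.39 (adjusted p = 0.00148). Smpd3, a sphingomyelinase whose loss in mice impairs mineralization, had 139, 495 and 426 CPM in immobilized limbs, against 44.4, 15.1 and 32.6 CPM in control limbs. It rose by 3.48 ± 0.70 (adjusted p = 0.00451), a call lost with edgeR on the CAST/EiJ libraries alone (adjusted p = 0.156), and in all 3 genes the limbs did not overlap. The sodium-calcium exchanger Slc8a3 rose by 2.59 ± 0.53 (adjusted p = 0.005), a call lost without mouse 4 (adjusted p = 0.0648).

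Transcription factors of the osteoblast lineage moved the same way. Of 13 tested factors 9 rose, beside 8.38% of all genes, and none fell. The median log2 change was 1.69, beside 2.93 for the matrix genes, and 4 were called without mouse 3 and 4 without mouse 4. Sp7, the osterix factor that commits cells to the osteoblast fate, had 147, 269 and 225 CPM in immobilized limbs, against 54.2, 38.9 and 33.8 CPM in control limbs. It rose by 2.33 ± 0.41 (adjusted p = 0.00181), without overlap. Dlx3, a homeobox factor acting in bone and skin, had 39.0, 65.7 and 46.7 CPM in immobilized limbs and 9.11, 8.68 and 8.74 CPM in control limbs, a rise of 2.48 ± 0.48 (adjusted p = 0.0033). The control limbs of the 3 mice were nearly equal for this gene.

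Twist1, a factor that holds mesenchymal cells back from osteoblast differentiation, rose by 1.91 ± 0.41 (adjusted p = 0.00583), a call lost without mouse 3 (adjusted p = 0.0527) or mouse 4 (0.072). Runx2, the master factor of the lineage, was not called: it had 77.9, 172 and 136 CPM in immobilized limbs, against 70.3, 80.7 and 70.6 CPM in control limbs, a log2 change of 0.73 ± 0.25 (adjusted p = 0.0571). Its limbs overlapped through mouse 2.

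**Figure D3:**
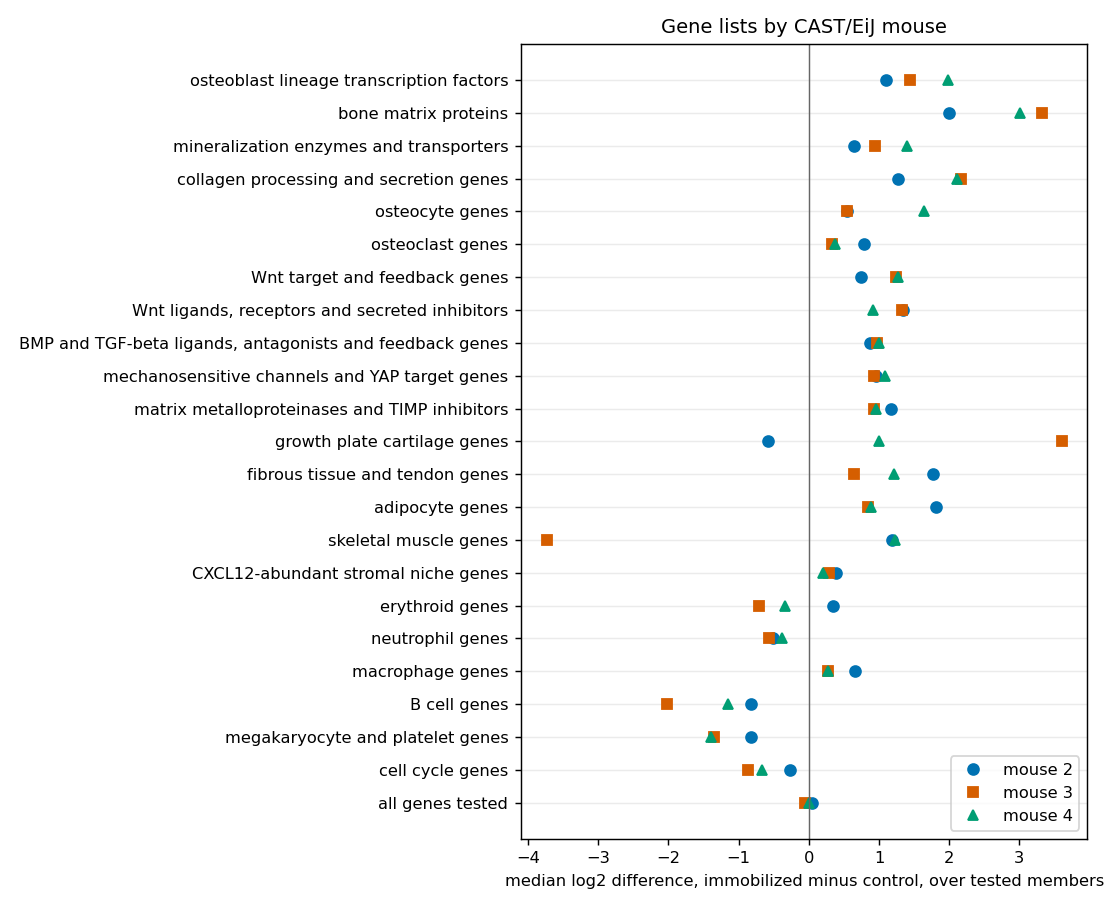
Median log2 difference between immobilized and control limb (x axis) over the tested genes of 22 lists and of all genes (rows), for each CAST/EiJ mouse (symbols). Bone lists lie right of 0 and the B cell, megakaryocyte, neutrophil and cell cycle lists left of it in every mouse. Muscle, cartilage and erythroid genes disagree between mice.

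The largest rises among genes averaging at least 5 CPM included 3 collagen chains already described and several genes of low level in control limbs. Nell1 (chromosome 7, 49974864 to 50866608), a secreted protein known to promote osteoblast differentiation, had 9.10, 22.5 and 26.0 CPM in immobilized limbs, against 0.346, 0 and 0.588 CPM in control limbs. The control values stand for 3, 0 and 7 reads. It rose by 5.94 ± 0.79 (adjusted p = 0.000352). Bcan (chromosome 3, 87987531 to 88000230), brevican, a proteoglycan best known from the matrix of brain, had 10.7, 30.6 and 23.8 CPM in immobilized limbs and 0.807, 0.183 and 0.588 CPM in control limbs, from 7, 2 and 7 reads. Its rise was 5.29 ± 0.68 (adjusted p = 0.000294). For both genes every immobilized limb lay far above every control limb, but the size of the fold rests on few control reads.

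Slc13a5, the sodium-coupled citrate transporter, had 365, 731 and 764 CPM in immobilized limbs, against 62.0, 13.5 and 37.9 CPM in control limbs, a rise of 4.21 ± 0.77 (adjusted p = 0.00248; 0.0969 with edgeR on the CAST/EiJ libraries alone). Cpz, a secreted carboxypeptidase with a frizzled-like domain, had 82.8, 140 and 121 CPM in immobilized limbs, against 13.4, 4.84 and 8.06 CPM in control limbs, a rise of 3.77 ± 0.68 (adjusted p = 0.00224). Both were present in control limbs at counts that give the fold a firmer base. Fetub, the protease inhibitor fetuin-B, known as a liver product, rose by 4.40 ± 0.80 (adjusted p = 0.00217) from a control mean of 0.49 CPM. The remaining large rises were Fam84a at 4.38 ± 0.82 (adjusted p = 0.00253), Mamdc2 at 3.84 ± 0.62 (adjusted p = 0.00105; 0.0615 with edgeR on the CAST/EiJ libraries alone), Nell2, the relative of Nell1 best known from neurons, at 3.83 ± 0.85 (adjusted p = 0.0112) and Vat1l at 3.77 ± 0.77 (adjusted p = 0.00432). The call of Nell2 was lost without mouse 3 (adjusted p = 0.0844) or mouse 4 (0.0811), and that of Vat1l without mouse 3 (adjusted p = 0.0542).

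The promoters of 3 genes are printed because they belong to the largest named rise, a classic osteoblast gene and the largest named fall. Each is the 250 bases before the RefSeq transcription start (GRCm38.p6), 5′ to 3′ on the gene's strand. The sequence is that of C57BL/6J and not of CAST/EiJ. For Nell1 the RefSeq start lies downstream of the gene start of 49974864 given above, so its window falls inside the gene as located there. Capitals mark the RUNX core motif ACCACA or its reverse complement TGTGGT. The Nell1 promoter (chr7:49975100-49975349, plus strand), the Bglap promoter (chr3:88384467-88384716, minus strand) and the Rag1 promoter (chr2:101649533-101649782, minus strand) read:
Nell1: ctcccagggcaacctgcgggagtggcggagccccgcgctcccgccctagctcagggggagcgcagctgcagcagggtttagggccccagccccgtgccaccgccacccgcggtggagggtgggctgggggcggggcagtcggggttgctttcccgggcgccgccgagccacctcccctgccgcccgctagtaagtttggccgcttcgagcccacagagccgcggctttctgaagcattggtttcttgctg
Bglap: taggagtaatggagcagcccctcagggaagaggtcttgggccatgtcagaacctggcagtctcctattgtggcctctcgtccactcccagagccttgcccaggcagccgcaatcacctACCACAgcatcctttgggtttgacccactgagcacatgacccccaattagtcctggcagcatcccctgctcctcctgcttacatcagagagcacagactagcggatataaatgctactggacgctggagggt
Rag1: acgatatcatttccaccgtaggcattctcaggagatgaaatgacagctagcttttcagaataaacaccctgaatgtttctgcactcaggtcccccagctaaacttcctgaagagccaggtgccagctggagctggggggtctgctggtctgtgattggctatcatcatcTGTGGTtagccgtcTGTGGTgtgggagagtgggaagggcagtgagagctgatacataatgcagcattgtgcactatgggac

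The RUNX motif occurred once in the Bglap window, 132 bases before the start, and at 2 places on the opposite strand in the Rag1 window, 81 and 67 bases before the start. The Nell1 window held none, nor did those of Col1a2, Ibsp, Bcan and Il7r, which were also scanned and are not printed. Promoters were found for 34 of the 55 genes called higher in the matrix, mineralization, collagen processing and osteoblast factor lists, and 7.69% of these 39 promoters held the motif on either strand, beside 11.5% of 15009 promoters of tested genes and 14% of all 32851 promoters. For the TCF/LEF motif of Wnt signalling, CTTTGA or TCAAAG, the shares were 15.4%, 11% and 13.8%. A motif match is a description of the letters and not a site of binding.

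Among osteocyte genes 3 of 13 rose, beside 8.38% of all genes, and none fell, with a median of 0.88. Without mouse 3 or mouse 4 none of them was called. With all mice 6 of 13 reached an unadjusted p under 0.05, beside 5016 of all 16882 genes. DESeq2 called 5, beside 2995 of 16882, and edgeR on the CAST/EiJ libraries alone called 7, beside 3361 of 14052. Sost, which encodes sclerostin, had 110, 182 and 237 CPM in immobilized limbs, against 84.3, 124 and 83.3 CPM in control limbs, a log2 change of 0.81 ± 0.71 (adjusted p = 0.48). Dmp1, a matrix phosphoprotein of osteocytes, had 342, 539 and 460 CPM in immobilized limbs, against 235, 207 and 143 CPM in control limbs, at 1.21 ± 0.48 (adjusted p = 0.104). The limbs overlapped for Sost and were apart for Dmp1, and neither was called. The 3 that rose mark young osteocytes or have wider roles. Pdpn, the E11 antigen of early osteocytes, rose by 2.52 ± 0.55 (adjusted p = 0.00677), the homeobox gene Irx5 by 1.76 ± 0.37 (adjusted p = 0.00493) and Phex, a phosphate-regulating endopeptidase, by 1.63 ± 0.51 (adjusted p = 0.0424). Their calls were lost without mouse 3 (adjusted p = 0.0513, 0.0535 and 0.239 for Pdpn, Irx5 and Phex) and without mouse 4 (0.0793, 0.0673 and 0.257).

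The count of called osteoclast genes depended on the fit. Of 16 genes 1 rose, beside 8.38% of all genes, none fell, and the median was 0.45. An unadjusted p under 0.05 was reached by 7, beside 5016 of all 16882 genes. DESeq2 called 2, beside 2995 of 16882, and the fit with a muscle covariate 3, beside 3417. On the CAST/EiJ libraries alone edgeR called 7, beside 3361 of 14052. Ctsk, which encodes the collagen-cutting cathepsin K, had 2408, 1746 and 993 CPM in immobilized limbs, against 636, 1075 and 306 CPM in control limbs. It was higher in each mouse's immobilized limb, the limbs overlapped across mice, and the log2 change of 1.44 ± 0.55 was not called (adjusted p = 0.0895). Acp5, tartrate-resistant acid phosphatase, had 3283, 2181 and 1247 CPM in immobilized limbs, against 1264, 1742 and 542 CPM in control limbs, at 0.97 ± 0.46 (adjusted p = 0.165). The rise was Ocstamp, a membrane protein of osteoclast fusion, at 1.11 ± 0.36 (adjusted p = 0.0496), and no fit with a mouse left out called it (adjusted p = 0.131 to 0.233).

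Of 12 regulators of osteoclasts 2 rose, beside 8.38% of all genes, and none fell, with a median of 0.48. Tnfsf11 had 5.84, 9.06 and 4.91 CPM in immobilized limbs, against 6.46, 6.58 and 4.79 CPM in control limbs, a log2 change of 0.12 ± 0.39 (adjusted p = 0.876). Its decoy receptor osteoprotegerin, Tnfrsf11b, had 17.4, 39.1 and 28.2 CPM in immobilized limbs, against 10.4, 8.32 and 9.83 CPM in control limbs, at 1.51 ± 0.67 (adjusted p = 0.143). RANKL values overlapped and those of osteoprotegerin did not. The rises were the cytokine Il1b at 1.09 ± 0.32 (adjusted p = 0.0338) and the ephrin receptor Ephb4 at 0.71 ± 0.20 (adjusted p = 0.0245), both lost with any mouse left out (highest adjusted p of 0.201 for Il1b and 0.16 for Ephb4).

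Among Wnt signalling genes, ligands, receptors and inhibitors were all among the rises. Of 28 ligands, receptors and secreted inhibitors 14 rose, beside 8.38% of all genes, and none fell, with a median of 1.20. The count was 6 without mouse 2, 3 without mouse 3, 4 without mouse 4 and 5 with no term for the mouse. Over all genes these fits called 1016, 821, 679 and 1257. Among them were opposing roles: the ligands Wnt4, Wnt5a, Wnt5b and Wnt11, the receptors Lrp4, Lrp5, Fzd1, Fzd2, Fzd8 and Fzd9, the soluble antagonists Sfrp2, Sfrp4 and Frzb, and the agonist Rspo3. Sfrp2, a secreted frizzled-related protein, had 16.3, 22.5 and 38.4 CPM in immobilized limbs, against 1.27, 1.74 and 3.70 CPM in control limbs, a rise of 3.56 ± 0.52 (adjusted p = 0.000487). Frzb, another antagonist of this family, rose by 2.74 ± 0.63 (adjusted p = 0.00901) and Wnt11, a noncanonical ligand, by 3.24 ± 0.89 (adjusted p = 0.0219) from 8 control reads in all. Both calls were lost without mouse 3 (adjusted p = 0.0788 for Frzb and 0.119 for Wnt11) or mouse 4 (0.0529 and 0.148).

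Of 14 target and feedback genes of the pathway 5 rose and 1 fell, beside 8.38% and 5.47% of all genes. The median was 1.14, and 3 were called without mouse 4. Apcdd1, a membrane inhibitor induced by Wnt, had 16.2, 46.3 and 34.0 CPM in immobilized limbs, against 4.73, 2.10 and 3.44 CPM in control limbs, a rise of 3.16 ± 0.51 (adjusted p = 0.001; 0.0508 with edgeR on the CAST/EiJ libraries alone). Tcf7, which encodes the TCF1 factor, had 21.3, 49.3 and 34.5 CPM in immobilized limbs and 9.46, 7.40 and 9.49 CPM in control limbs, a rise of 1.93 ± 0.33 (adjusted p = 0.00146). Neither overlapped. Wisp1, a matricellular protein, rose by 2.08 ± 0.50 (adjusted p = 0.0118), a call lost without mouse 3 (adjusted p = 0.0884) or mouse 4 (0.114). Axin2, the usual reporter of canonical signalling, had 3.67, 6.66 and 5.95 CPM in immobilized limbs, against 2.31, 2.74 and 1.60 CPM in control limbs, and was not called at 1.28 ± 0.49 (adjusted p = 0.0864). Lgr5, an R-spondin receptor, fell by 1.91 ± 0.62 on the log2 scale (adjusted p = 0.0468), and no fit with a mouse left out called it (adjusted p = 0.104 to 0.257).

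Of 31 BMP and TGF-beta genes 13 rose, beside 8.38% of all genes, and none fell, with a median of 1.0. The count was 10 without mouse 2, 4 without mouse 3 and 4 without mouse 4, beside 1016, 821 and 679 of all genes. The ligand Bmp7 had 17.9, 43.5 and 33.9 CPM in immobilized limbs, against 8.53, 5.67 and 4.96 CPM in control limbs, a rise of 2.27 ± 0.44 (adjusted p = 0.003). Bmp2, a strong inducer of bone, rose by 1.55 ± 0.39 (adjusted p = 0.0154) and the decoy receptor Bambi by 2.08 ± 0.49 (adjusted p = 0.0104). These 2 calls were lost without mouse 3 (adjusted p = 0.102 for Bmp2 and 0.0664 for Bambi) or mouse 4 (0.111 and 0.0963). The activin subunit Inhbb rose by 1.74 ± 0.43 (adjusted p = 0.0139; 0.0827 without mouse 3 and 0.0887 without mouse 4), and Gdf10 by 1.70 ± 0.46 (adjusted p = 0.021), lost with any mouse left out (adjusted p = 0.0825 to 0.12). Of 14 IGF genes none was called by edgeR, and 5 reached an unadjusted p under 0.05, beside 5016 of all 16882 genes. DESeq2 called 4, beside 2995 of 16882, and edgeR on the CAST/EiJ libraries alone called 3, beside 3361 of 14052. Igf1 was at 0.76 ± 0.27 (adjusted p = 0.0668).

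Of 18 mechanosensitive channel and YAP target genes 7 rose, beside 8.38% of all genes, and none fell. The median was 1.07, while 3 were called without mouse 3 and 2 without mouse 4. Trpv4, a calcium channel opened by stretch and flow, had 22, 37.2 and 30.6 CPM in immobilized limbs, against 7.61, 5.94 and 7.48 CPM in control limbs, a rise of 2.07 ± 0.41 (adjusted p = 0.00349). Gja1, connexin 43, which joins osteoblasts and osteocytes, had 295, 556 and 504 CPM in immobilized limbs and 143, 128 and 110 CPM in control limbs, a rise of 1.79 ± 0.34 (adjusted p = 0.003). The limbs of both were apart. Panx3, a channel of osteoblasts and chondrocytes, rose by 3.37 ± 0.96 (adjusted p = 0.0289), lost without mouse 3 (adjusted p = 0.16) or mouse 4 (0.128), and Cyr61, a YAP target, by 2.04 ± 0.44 (adjusted p = 0.00678), lost without mouse 4 (adjusted p = 0.0754). Piezo1, a stretch-activated channel, was not called at 0.53 ± 0.18 (adjusted p = 0.0627).

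Enzymes that cut the matrix and their inhibitors were called in 6 of 19 cases, all higher, beside 8.38% of all genes. The median was 1.18, and 3 cases each were called without mouse 3 and without mouse 4. Mmp2, gelatinase A, had 622, 752 and 640 CPM in immobilized limbs, against 115, 161 and 108 CPM in control limbs, a rise of 2.41 ± 0.37 (adjusted p = 0.000673). Mmp16, a membrane-bound protease, rose by 2.47 ± 0.47 (adjusted p = 0.00299) and Mmp23 by 2.25 ± 0.29 (adjusted p = 0.000294). Timp1, an inhibitor of these proteases, had 187, 116 and 84.0 CPM in immobilized limbs, against 23.6, 34.8 and 16.1 CPM in control limbs, a rise of 2.36 ± 0.62 (adjusted p = 0.0197), lost with any mouse left out (adjusted p = 0.055 to 0.13).

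Genes of neighbouring tissues are given beside these rises. Of 19 growth plate cartilage genes edgeR called none, 1 reached an unadjusted p under 0.05, DESeq2 called 2 and edgeR on the CAST/EiJ libraries alone called 3. Their median change was -0.59 in mouse 2, 3.60 in mouse 3 and 1.0 in mouse 4, and the list summed to 1706, 1875 and 1160 CPM in immobilized limbs, against 752, 694 and 446 CPM in control limbs. Col2a1, the main collagen of cartilage, had 13.9, 141 and 57.7 CPM in immobilized limbs and 37.5, 4.39 and 13.4 CPM in control limbs, so it was lower in the immobilized limb of mouse 2 and higher in those of mice 3 and 4. Of 25 muscle genes edgeR called none, also on the CAST/EiJ libraries alone, 2 reached an unadjusted p under 0.05, and DESeq2 and the fit without mouse 4 called 1 each. Skeletal actin, Acta1, had 300, 70.0 and 53.2 CPM in immobilized limbs and 107, 1026 and 43.9 CPM in control limbs. All 25 muscle genes were lower in the immobilized limb of mouse 3, whereas 21 were higher in that of mouse 2 and 23 in that of mouse 4. With a muscle score as a covariate 3417 genes were called, 2338 of them among the 2339. Of the 19 cartilage genes 3 were at 0 in at least 1 library, and of the muscle genes none was. The part of cartilage and of muscle in the bone rises was not tested.

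Of 18 fibrous tissue and tendon genes 4 rose, beside 8.38% of all genes, and none fell, with a median of 1.33. Without mouse 2 and without mouse 4, 2 each were called. Fap, a protease of activated fibroblasts, had 408, 541 and 566 CPM in immobilized limbs, against 156, 171 and 124 CPM in control limbs, a rise of 1.74 ± 0.28 (adjusted p = 0.000889). Dcn, decorin, a proteoglycan of collagen fibrils, had 725, 1407 and 1849 CPM in immobilized limbs and 192, 199 and 236 CPM in control limbs, a rise of 2.57 ± 0.45 (adjusted p = 0.00163). Both were apart between the limbs. Scx, the tendon factor scleraxis, rose by 2.41 ± 0.54 (adjusted p = 0.00731), lost without mouse 2 (adjusted p = 0.05004) or mouse 4 (0.0689). Lum, lumican, rose by 1.85 ± 0.58 (adjusted p = 0.0428), lost without mouse 2 (adjusted p = 0.254) or mouse 4 (0.195).

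Fat cell genes rose in part. Of 19 genes 7 rose, beside 8.38% of all genes, and none fell, with a median of 1.08. Yet no more than 2 were called with a mouse left out, and 3 with no term for the mouse. The list summed to 4723, 2750 and 2626 CPM in immobilized limbs, against 854, 849 and 1045 CPM in control limbs. Car3, carbonic anhydrase 3, abundant in fat and in slow muscle, had 716, 931 and 862 CPM in immobilized limbs, against 95.1, 136 and 104 CPM in control limbs, a rise of 2.91 ± 0.49 (adjusted p = 0.00134). Its 3 immobilized values were close together and far above the control values. The lipid droplet coat protein Plin1 rose by 2.38 ± 0.75 (adjusted p = 0.045), the desaturase Scd1 by 2.37 ± 0.70 (adjusted p = 0.0319) and Pck1, phosphoenolpyruvate carboxykinase, by 2.16 ± 0.66 (adjusted p = 0.0385), and none kept its call with a mouse left out (adjusted p = 0.0614 to 0.235). Adipoq, the hormone adiponectin of mature fat cells, had 158, 79.3 and 95.4 CPM in immobilized limbs and 59.0, 66.5 and 60.3 CPM in control limbs, a log2 change of 0.78 ± 0.38 (adjusted p = 0.18). Pparg, the master factor of fat cells, was at 0.41 ± 0.22 (adjusted p = 0.221).

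Among 15 genes of the stromal cells that support blood formation 3 rose and 1 fell, beside 8.38% and 5.47% of all genes. Pdgfra, a receptor of mesenchymal progenitors, rose by 2.17 ± 0.31 (adjusted p = 0.000461), and Bmp4, a BMP ligand also counted above, by 1.57 ± 0.27 (adjusted p = 0.00159). Gas6, a ligand of TAM receptors, rose by 0.67 ± 0.22 (adjusted p = 0.0498), lost with any mouse left out (adjusted p = 0.0594 to 0.412). Angpt1, angiopoietin 1, fell by 0.89 ± 0.22 on the log2 scale (adjusted p = 0.0114), lost with any mouse left out (adjusted p = 0.0503 to 0.104). Cxcl12, the chemokine for which these cells are named, had 1721, 1646 and 1018 CPM in immobilized limbs, against 1373, 1425 and 1181 CPM in control limbs, at 0.11 ± 0.25 (adjusted p = 0.823).

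The largest group of falls among the lists was that of B lineage genes. Of 18 genes 9 fell and none rose, with a median log2 change of -1.36, beside 5.47% of all genes called lower. In 17 of 18 the limbs did not overlap, beside 35.4% of all genes. The list summed to 341, 265 and 346 CPM in immobilized limbs, against 648.5, 1085 and 758 CPM in control limbs. Without mice 2, 3 and 4 in turn, 7, 3 and 4 members were called, beside 1016, 821 and 679 of all genes. Rag1 (chromosome 2, 101638282 to 101649501), the recombinase that cuts antigen receptor genes in developing lymphocytes, had 2.45, 8.36 and 12.3 CPM in immobilized limbs, against 37.7, 77.2 and 58.1 CPM in control limbs. It fell by 3.06 ± 0.47 on the log2 scale (adjusted p = 0.000708), 8.36-fold. Il7r (chromosome 15, 9505788 to 9530176), the interleukin 7 receptor on which early B and T cells depend, had 2.72, 4.11 and 10.7 CPM in immobilized limbs and 27.3, 51.8 and 35.4 CPM in control limbs, a fall of 2.85 ± 0.37 (adjusted p = 0.000299). Mouse 4 kept the most of both transcripts.

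Bach2, a transcriptional repressor that acts within early and mature B cells, had 9.51, 9.35 and 10.4 CPM in immobilized limbs, against 47.0, 73.8 and 52.4 CPM in control limbs. It fell by 2.54 ± 0.30 on the log2 scale (adjusted p = 0.000112). Its immobilized values were nearly equal in the 3 mice. Rag2, the partner of Rag1, fell by 2.25 ± 0.53 on the log2 scale (adjusted p = 0.0104), lost without mouse 2 (adjusted p = 0.0517) or mouse 3 (0.105). Outside the list, the B cell factor Spib had 14, 10.2 and 12.3 CPM in immobilized limbs, against 68.7, 88.8 and 66.5 CPM in control limbs, a fall of 2.61 ± 0.36 (adjusted p = 0.000436). Irf4, a factor of B and plasma cells, fell by 2.19 ± 0.33 on the log2 scale (adjusted p = 0.0006). Among 8 plasma cell genes Irf4 was the 1 that fell and Sdc1, syndecan 1, which other cells also carry, the 1 that rose, by 1.40 ± 0.35 (adjusted p = 0.0146; 0.123 without mouse 2 and 0.0735 without mouse 3). Of 14 T and NK cell genes 1 fell, beside 5.47% of all genes. This was Klrb1c, an NK cell receptor, by 1.31 ± 0.41 on the log2 scale (adjusted p = 0.0382), lost with any mouse left out (adjusted p = 0.106 to 0.193).

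**Figure D4:**
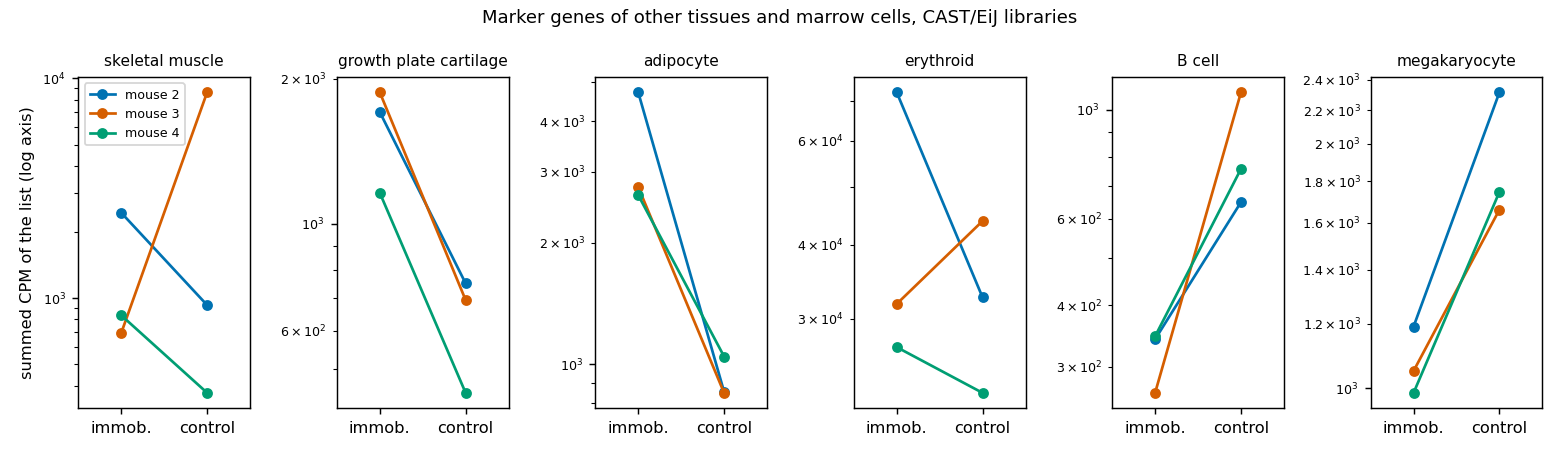
Summed CPM (log axis) of 6 marker lists in the immobilized (left) and control (right) tibia of each CAST/EiJ mouse, with a line joining the limbs. B cell and megakaryocyte sums are lower and adipocyte and cartilage sums higher in every immobilized limb. For cartilage this holds for the sum alone, as the median change of its genes in mouse 2 was -0.59. The muscle sum of mouse 3 is 694 CPM in the immobilized against 8659 CPM in the control limb.

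Megakaryocyte and platelet genes also had lower values. Of 12 genes 4 fell, beside 5.47% of all genes, and none rose, with a median of -1.22. The limbs did not overlap in 10 of 12, beside 35.4% of all genes. The list summed to 1191, 1050 and 987 CPM in immobilized limbs, against 2316, 1660 and 1746 CPM in control limbs. The fallers were Gp1ba, the von Willebrand factor receptor, at -2.0 ± 0.53 (adjusted p = 0.0188), the collagen receptor Gp6 at -1.83 ± 0.52 (adjusted p = 0.0273), Treml1 at -1.75 ± 0.52 (adjusted p = 0.0342) and the platelet tubulin Tubb1 at -1.47 ± 0.47 (adjusted p = 0.0478). Without mouse 2 Gp1ba alone was called (adjusted p = 0.0499). Without mouse 3 or mouse 4 none was, with the 4 genes at adjusted p = 0.0713 to 0.18. With all mice 9 of 12 reached an unadjusted p under 0.05, beside 5016 of all 16882 genes. DESeq2 called 7, beside 2995 of 16882, and edgeR on the CAST/EiJ libraries alone called 10, beside 3361 of 14052. Vwf, the von Willebrand factor of endothelium and platelets, fell by 1.58 ± 0.46 on the log2 scale (adjusted p = 0.0317), lost with any mouse left out (adjusted p = 0.0593 to 0.185).

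For the most abundant marrow cells the calls depended on the libraries fitted. With all strains in the fit edgeR called none of 16 neutrophil and none of 16 erythroid genes. None of either list reached an unadjusted p under 0.05, and DESeq2 called none. On the CAST/EiJ libraries alone edgeR called 7 neutrophil and 3 erythroid genes, beside 3361 of all 14052 genes in that fit. Neutrophil genes summed to 36550, 26170 and 52420 CPM in immobilized limbs, against 50120, 39370 and 56350 CPM in control limbs, with a median log2 change of -0.49. Erythroid genes summed to 72400, 31780 and 26880 CPM in immobilized limbs, against 32610, 43880 and 22500 CPM in control limbs, with a median of -0.35. Elane, neutrophil elastase, was at -1.03 ± 0.58 (adjusted p = 0.246). Of 15 macrophage genes 2 rose, beside 8.38% of all genes. They were Vsig4, by 2.20 ± 0.57 (adjusted p = 0.0172) from 10 control reads in all, and the phagocytosis receptor Mertk, by 0.74 ± 0.18 (adjusted p = 0.0135). Both were lost without mouse 3 (adjusted p = 0.132 for Vsig4 and 0.103 for Mertk) or mouse 4 (0.0818 and 0.0988). Cell cycle genes were all below 0, with a median of -0.68 over 16 genes. An unadjusted p under 0.05 was reached by 8 of them, beside 5016 of all 16882 genes. The limbs did not overlap in 14 of the 16, beside 35.4% of all genes. DESeq2 called 4, beside 2995 of 16882 genes, and the fit with a muscle covariate 4, beside 3417. On the CAST/EiJ libraries alone edgeR called 12, beside 3361 of 14052. With all strains in the fit a single one of 16 was called, beside 5.47% of all genes called lower. This was the checkpoint kinase Bub1, which fell by 1.01 ± 0.29 on the log2 scale (adjusted p = 0.0272, and 0.0790 to 0.148 with a mouse left out).

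The other large falls named by size came from several families. Il2ra, the interleukin 2 receptor alpha chain, had 2.99, 2.83 and 3.12 CPM in immobilized limbs, against 14.1, 17.4 and 14.3 CPM in control limbs, a fall of 2.34 ± 0.38 (adjusted p = 0.001). Tmprss3, a membrane serine protease, had 4.08, 4.11 and 6.54 CPM in immobilized limbs and 26.4, 34.4 and 23.1 CPM in control limbs, a fall of 2.52 ± 0.42 (adjusted p = 0.00109). Mmrn1, multimerin 1, a protein of platelets and endothelium, had 20.8, 10.1 and 19.5 CPM in immobilized limbs, against 86.5, 64.2 and 75.3 CPM in control limbs, a fall of 2.21 ± 0.43 (adjusted p = 0.00332). In these 3 genes the limbs were clearly apart. Serpina3b, a serine protease inhibitor, fell by 2.48 ± 0.49 (adjusted p = 0.0037) and Gpr171, a G protein-coupled receptor, by 2.42 ± 0.44 (adjusted p = 0.00197).

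Atp6v0a4, a proton pump subunit, fell by 2.50 ± 0.62 (adjusted p = 0.0136), lost without mouse 2 (adjusted p = 0.0598) or mouse 3 (0.12). The giant GTPase gene Gvin1 fell by 2.28 ± 0.70 (adjusted p = 0.0418), but its limbs overlapped, it had no read in the immobilized limb of mouse 2, and the call was lost with any mouse left out (adjusted p = 0.0584 to 0.168). Cnp, a phosphodiesterase of myelin-forming cells and of other cells, had 18.6, 17.1 and 19.2 CPM in immobilized limbs, against 59.1, 73.6 and 54.1 CPM in control limbs. It fell by 1.75 ± 0.20 (adjusted p = 0.000111), and was the 1 called gene of 10 nerve and Schwann cell genes.

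Stress, secretion and rhythm genes moved in small numbers. Counts from the main fit, here and in the next paragraph, stand beside 8.38% of all genes called higher and 5.47% called lower. Of 19 endoplasmic reticulum genes 3 rose and 2 fell. The retrieval receptor Kdelr3 rose by 3.22 ± 0.47 (adjusted p = 0.000581), and its relative Kdelr2 by 0.92 ± 0.23 (adjusted p = 0.0131; 0.112 without mouse 3 and 0.0703 without mouse 4). The chaperone Hyou1 fell by 0.70 ± 0.12 (adjusted p = 0.00172) and Sdf2l1 by 0.83 ± 0.24 (adjusted p = 0.0277; 0.0751 to 0.172 with a mouse left out), while the central chaperone Hspa5 was at -0.02 ± 0.16 (adjusted p = 0.963). Of 18 immediate early genes 3 rose and 1 fell: Jund by 1.24 ± 0.21 (adjusted p = 0.00148), Klf4 by 1.02 ± 0.24 (adjusted p = 0.0104), Dusp1 by 0.91 ± 0.23 (adjusted p = 0.0135), and the growth regulator Myc, lower by 0.68 ± 0.17 (adjusted p = 0.0128). Klf4 was lost without mouse 2 (adjusted p = 0.0603) or mouse 3 (0.125), Dusp1 without mouse 2 (0.138) or mouse 4 (0.0578), and Myc without mouse 4 (0.146).

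Of 17 clock genes 3 rose, Npas2 by 1.27 ± 0.41 (adjusted p = 0.0458), Nr1d1 by 1.18 ± 0.37 (adjusted p = 0.0418) and Arntl by 0.78 ± 0.24 (adjusted p = 0.0376), and Nfil3 fell by 0.60 ± 0.17 on the log2 scale (adjusted p = 0.0293), each lost with any mouse left out (adjusted p = 0.0504 to 0.287). Of 14 glucocorticoid-responsive genes 4 rose and 1 fell, Fkbp5, a co-chaperone of the glucocorticoid receptor, by 0.82 ± 0.17 on the log2 scale (adjusted p = 0.00549; 0.0542 without mouse 3 and 0.0963 without mouse 4). The risers included Cdkn1a, the p21 inhibitor of the cell cycle, at 1.70 ± 0.34 (adjusted p = 0.00407), and the lipase inhibitor Angptl4 at 1.41 ± 0.32 (adjusted p = 0.00792; 0.0702 without mouse 2). Of 19 interferon-stimulated genes 1 rose and 1 fell, and Oasl2 rose by 1.02 ± 0.31 (adjusted p = 0.0347; 0.0975 to 0.209 with a mouse left out). None of 21 respiratory chain genes was called by edgeR, 2 reached an unadjusted p under 0.05, DESeq2 called none, and edgeR on the CAST/EiJ libraries alone called 2 and the fit with a muscle covariate 3. Of the remaining lists, 14 muscle disuse genes held 2 rises, of which the metallothionein Mt2 rose by 1.33 ± 0.38 (adjusted p = 0.0281; 0.225 without mouse 2 and 0.12 without mouse 4). Of 14 endothelial genes 2 rose beside the fall of Vwf, Emcn by 1.01 ± 0.33 (adjusted p = 0.0482; 0.103 to 0.208 with a mouse left out) and the tight junction protein Cldn5 by 1.10 ± 0.31 (adjusted p = 0.0257; 0.262 without mouse 2 and 0.0829 without mouse 3). Of 11 stem and progenitor genes 1 rose and 1 fell, and Hoxa9 rose by 0.78 ± 0.23 (adjusted p = 0.0325; 0.112 to 0.151 with a mouse left out). Of 19 hypoxia and glycolysis genes Pfkp fell by 0.51 ± 0.16 (adjusted p = 0.0375; 0.11 to 0.195 with a mouse left out), and of 16 inflammatory genes Il1b alone rose. Of 11 mast cell, eosinophil and basophil genes edgeR called none, and 5 reached an unadjusted p under 0.05, beside 5016 of all 16882 genes. DESeq2 called none of the 11, and the fit with a muscle covariate 2, beside 3417 of 16882. On the CAST/EiJ libraries alone edgeR called 4, beside 3361 of 14052.

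The limb effect of CAST/EiJ was then set against the mean limb effect of 6 other strains with 3 pairs each (WSB/EiJ, PWK/PhJ, NZO/HlLtJ, NOD/ShiLtJ, C57BL/6J and 129S1/SvImJ), which asks whether the response depends on the strain. The difference passed an adjusted p of 0.05 in 292 genes (1.73%), 203 (1.2%) with a higher and 89 (0.527%) with a lower change in CAST/EiJ. This count rests on few mice: 155 genes were called without mouse 2, 7 without mouse 4 and none without mouse 3, where edgeR gave 2837 genes an unadjusted p under 0.05. With no term for the mouse 32 were called, and DESeq2 called 982 with all mice. Bone matrix genes had a median change of 2.93 in CAST/EiJ, beside 0.85 in 129S1/SvImJ, 0.33 in C57BL/6J, 1.86 in NOD/ShiLtJ, 0.69 in NZO/HlLtJ, 1.13 in PWK/PhJ and 0.07 in WSB/EiJ. In A/J, whose single usable pair was kept out of the mean, it was -2.06. Of 22 matrix genes 8, and of 29 collagen processing genes 7, had a called, higher change in CAST/EiJ, beside 1.2% of all genes.

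For single genes, Col1a1 rose in CAST/EiJ by 2.52 ± 0.63 more than in the other 6 strains (adjusted p = 0.0495), whose mean change was 1.28. No fit with a mouse left out called this difference (adjusted p = 0.0544 to 0.219). The change of Col1a1 in the 6 strains ran from 0.18 in C57BL/6J to 2.26 in NOD/ShiLtJ, where the rise was also called (adjusted p = 0.0255). Nell1 changed by 5.94 in CAST/EiJ against a mean of 1.30 in the others, a difference of 4.64 ± 0.91 (adjusted p = 0.0214; 0.115 without mouse 3 and 0.118 without mouse 4). The 6 strains varied widely for Nell1, from -2.47 in PWK/PhJ to 4.06 in NOD/ShiLtJ, where it was also called (adjusted p = 0.0161). Car3 changed by 2.91 in CAST/EiJ, against -0.02 in the others, a difference of 2.93 ± 0.52 (adjusted p = 0.0148; 0.101 without mouse 3 and 0.105 without mouse 4), and its change ran from -0.81 in NZO/HlLtJ to 0.70 in PWK/PhJ. Ctsk changed by 1.44 in CAST/EiJ and by 1.36 in the others, with a difference of 0.08 ± 0.59 (adjusted p = 1).

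B lineage genes differed in the same contrast: 3 of 18 had a called, lower change in CAST/EiJ, beside 0.527% of all genes. The list's median was -1.36 in CAST/EiJ and lay between -0.60 in NOD/ShiLtJ and 0.17 in NZO/HlLtJ in the 6 strains of the mean, while the single usable pair of A/J had -1.40, close to CAST/EiJ. Bach2 differed by -2.17 ± 0.32 (adjusted p = 0.00751), Il7r by -2.46 ± 0.40 (adjusted p = 0.00782) and Rag1 by -2.55 ± 0.50 (adjusted p = 0.0202). Without mouse 3 none of these 3 differences was called (adjusted p = 0.0964 for Bach2, 0.101 for Il7r and 0.121 for Rag1), and that of Rag1 was also lost without mouse 2 (0.0855) or mouse 4 (0.082). Cnp differed by -1.55 ± 0.22 (adjusted p = 0.00618; 0.0964 without mouse 3).

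**Figure D5:**
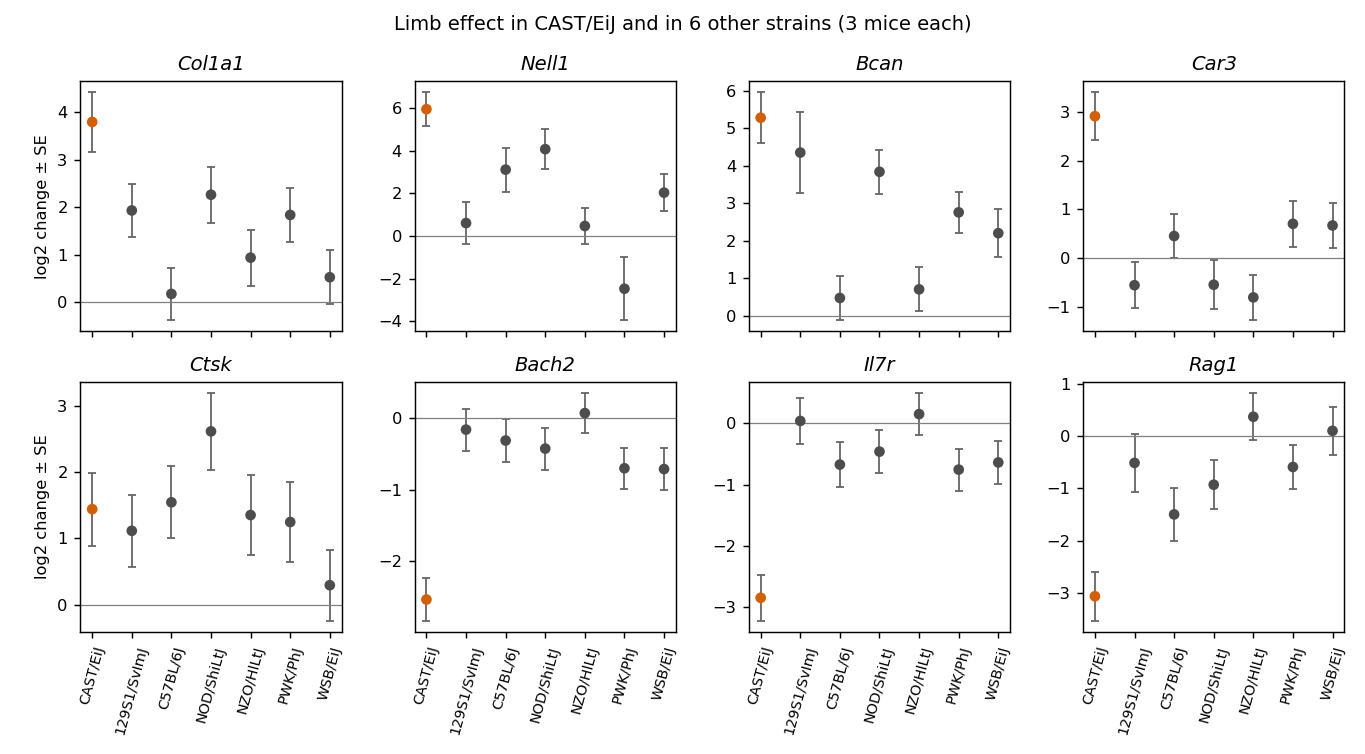
Log2 change, immobilized minus control, of 8 genes in CAST/EiJ (orange) and in 6 other strains (grey), for 3 mice per strain, with bars of 1 SE of the model, whose spread is pooled over the strains shown. CAST/EiJ lies above every other strain for Col1a1, Nell1 and Car3 and below every other strain for Bach2, Il7r and Rag1, whereas for Ctsk it lies among them.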

How the data were processed

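Tibial metaphysis of casted mice was measured by poly(A) RNA-seq. The deposited values are raw counts per gene symbol for 48 libraries. Counting with featureCounts, DESeq2 and the build mm10 are listed in the submitters' processing notes. Which aligner, gene annotation, strandedness and read filters were used is not given in the sources. Because mm10 is the C57BL/6J genome, CAST/EiJ reads were counted against another strain, in both limbs alike. Of 32544 gene rows, 7355 had no count in any library and 27 carried a date in place of a symbol.

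Counts were tested with edgeR 4.0.16 (R 4.3.3, limma 3.58.1): TMM scaling, filterByExpr, robust quasi-likelihood F tests with Benjamini-Hochberg adjustment over 16882 genes. One fit held 44 libraries of 22 mice, with one coefficient for each mouse and a limb coefficient for each strain, leaving 14 residual degrees of freedom. The 2 near-empty A/J controls and their partners were left out. SE was the log2 change divided by the square root of F, so it carries the pooled spread of the fit. The study's design states that each mouse gave both limbs, so the mouse was the block. As a check, deviations of the limbs of a mouse correlated across genes at 0.02, -0.03 and 0.28 for mice 2, 3 and 4. DESeq2 1.42.0, other scalings, filters and sample sets, and each mouse left out, were alternatives. Depth is given with the libraries in the text, and counting error is smallest for abundant genes.

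Named were the 12 largest rises and falls called and moving one way in 3 mice at a mean of at least 5 CPM (no predicted genes, pseudogenes or receptor segments), up to 4 called members and the first member of each list, the 8 largest differences from other strains each way, and a set of bone, fat, muscle and marrow genes. Some genes that this rule names are not reported here. Gene lists and named genes were chosen with earlier results of these data known. Coordinates are from GENCODE M21 (GRCm38), and figures were drawn with matplotlib 3.10.9. The procedure was tested on simulated data with 200 changed genes.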

Additional observations from a re-analysis of the deposited data

Results flagged for a closer look

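In 16 genes the limb effect of CAST/EiJ differed from the mean of the 6 other strains at an adjusted p of 0.05 in edgeR and was named for its size. Larger changes in CAST/EiJ were found for Nell1 (a log2 difference of 4.64), Fetub (3.53), Tmem182 (3.22), Grik2 (3.19), Paqr6 (3.06), Car3 (2.93), Mamdc2 (2.93) and Pitpnm3 (2.90). Lower changes in CAST/EiJ were found for Atp6v0a4 (-3.43), Rag1 (-2.55), Il7r (-2.46), Serpina3b (-2.36), Tmprss3 (-2.21), Bach2 (-2.17), Gpr171 (-2.13) and Cd226 (-2.13). Without mouse 3 none of the 16 was called. Of the 16, 10 were called in no fit with a mouse left out, 4 in 1 such fit and 2, Bach2 and Il7r, in 2.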

How the results depend on the processing

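Relative to 2339 calls (1415 higher, 924 lower), the limb effect in CAST/EiJ had 1257 calls (813 and 444) with no term for the mouse, that is without the pairing. It had 1566 falls with CAST/EiJ libraries alone and 1501 with a muscle covariate. With a mouse left out it had 679 to 1016 calls, 478 to 804 higher and 201 to 317 lower. DESeq2, RLE scaling, no filter and all 48 libraries gave totals within 1.5 times, from 1844 to 2995.

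The difference from the other strains (292 calls, 203 higher and 89 lower) was less stable. It had 32 calls (14 and 18) without the pairing, 55 lower with no filter, 982 (607 and 375) in DESeq2, 143 (97 and 46) with a muscle covariate and 1341 (856 and 485) against 7 strains including A/J. With a strain left out of the average it had 526 (388 and 138) without NOD/ShiLtJ, 159 (112 and 47) without NZO/HlLtJ, 487 (328 and 159) without PWK/PhJ and 110 (72 and 38) without WSB/EiJ. With a mouse left out it had 0 to 155 calls, 0 to 137 higher and 0 to 18 lower. The cause was not tested.

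Named genes that changed sign were all uncalled. With no term for the mouse Fbxo32 was at -0.082, and with CAST/EiJ libraries alone Adgre1 was at 0.
With a mouse left out, the log2 change ranged from -0.011 to 0.30 for Pecam1, from -0.66 to 0.14 for Isg15, from -0.13 to 0.81 for Hba-a1, from -0.002 to 0.27 for Cxcl12, from -0.34 to 0.15 for Cpa3, from -0.056 to 0.26 for Tnfsf11, from -1.81 to 0.89 for Acta1, from -0.24 to 0.50 for Fbxo32, from -0.057 to 0.016 for Hspa5, from -0.091 to 0.18 for Adgre1 and from -0.60 to 0.69 for Wnt1. Of 117 named and called genes, 52 were called in all 3 fits with a mouse left out and 31 in none. Depth limits the folds of genes with few control reads, such as Nell1 and Bcan.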
